A study of Homo sapiens with 15 samples.

Results

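Interferon-stimulated genes are the antiviral and immune genes that cells switch on when an interferon binds its receptor. The set described here holds 39 such genes, given as a list of names that was drawn up with earlier results of these arrays known. Of the 39 genes, 38 were measured by a probe set that names exactly 1 gene, out of 19775 genes measured in all. The remaining gene, STAT2, is not analysed here. Several such probe sets were present for 20 of the 38 genes, and the brightest on average over the 15 arrays then stood for the gene.

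Interferons of types I and III act through paired cell-surface receptors and the JAK kinases, which activate a transcription factor complex that contains IRF9 and binds the interferon-stimulated response element (ISRE) in the promoters of its targets. Interferon gamma acts through a receptor of its own and activates a STAT dimer that binds the gamma-activated site (GAS). The targets include sensors of viral RNA (RIGI and IFIH1), proteins that block viral RNA or proteins (the IFIT, OAS and MX families), the ubiquitin-like protein ISG15 with its conjugation enzymes, and transcription factors such as IRF7 and IRF1 that feed back on the pathway. In lung epithelium these genes form a main part of the early defence against respiratory viruses.

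The cells were A549, an established line from a human lung carcinoma that is widely used as a model of alveolar epithelium. Cells that had attached for 24 h were given geldanamycin, a natural compound that occupies the ATP pocket of the chaperone HSP90, and total RNA was hybridised to Affymetrix HG-U133 Plus 2.0 arrays. The 5 groups had 3 arrays each: vehicle for 24 h, 40 nM geldanamycin for 24 h, vehicle for 48 h, 10 nM for 48 h and 40 nM for 48 h. The vehicle was DMSO at a final 0.4%, and the lower dose was measured at 48 h only. Whether the 3 arrays of a group hold RNA of independent cultures is not stated in the labels. The tests therefore rest on the spread between these arrays, and that spread may be technical.

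Values are log2 expression values from RMA, a method that subtracts background, equalises the distributions of the arrays and summarises the probes of each set. A log2 difference of 1 is therefore a change of 2-fold, and values of different probe sets are not comparable as amounts of RNA. Genes were called higher or lower at an adjusted p below 0.05 in limma's moderated test, fitted to all 19775 genes on the 15 arrays with Benjamini-Hochberg adjustment over all of them. Over all genes, a log2 difference had a median standard error of 0.097. Averaged over all probe sets, arrays at 24 h had means of 5.13 to 5.14 and arrays at 48 h had means of 5.52, so comparisons were made within a time.

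Sequence is shown for members that lead the results below, since the set is defined by a response that runs through short promoter elements. RefSeq promoter windows of GRCh38.p14, from 250 bases before to 50 bases after a transcript start, were available for 31 of the 38 measured genes. The ISRE was searched as TTTCNNTTTC and, on the other strand, GAAANNGAAA, with overlapping matches allowed and no check of overlap with the GAS. The 250 bases upstream of 1 annotated start of IFI27 (chr14:94110486-94110735, plus strand) and of IFI6 (chr1:27672193-27672442, minus strand) follow, with ISRE matches in capitals, because these 2 genes had the largest changes of the set. Relative to the start, the matches of IFI27 begin at positions -108 and -95, and those of IFI6 at -156, -115 and -93.
IFI27: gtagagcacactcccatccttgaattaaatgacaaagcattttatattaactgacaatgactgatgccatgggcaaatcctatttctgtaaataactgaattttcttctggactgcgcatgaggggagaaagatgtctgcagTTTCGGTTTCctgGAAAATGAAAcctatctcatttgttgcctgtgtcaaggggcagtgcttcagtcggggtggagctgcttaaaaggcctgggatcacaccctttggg
IFI6: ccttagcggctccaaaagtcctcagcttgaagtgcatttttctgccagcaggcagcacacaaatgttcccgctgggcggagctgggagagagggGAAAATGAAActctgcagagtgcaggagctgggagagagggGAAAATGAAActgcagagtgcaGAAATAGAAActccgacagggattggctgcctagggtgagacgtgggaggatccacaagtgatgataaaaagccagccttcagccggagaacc

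Single matches of 5 further members that lead a comparison are given with 10 bases on each side, again with the match in capitals, to show how the spacer and the flanks vary. They lie at chr10:89392497-89392526 (IFIT1, plus strand), chr10:89327865-89327894 (IFIT3, plus strand), chr19:17405741-17405770 (BST2, minus strand), chr4:88457035-88457064 (HERC5, plus strand) and chr15:88638937-88638966 (ISG20, plus strand).
IFIT1: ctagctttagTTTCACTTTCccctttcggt
IFIT3: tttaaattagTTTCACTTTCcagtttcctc
BST2: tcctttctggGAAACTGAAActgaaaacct
HERC5: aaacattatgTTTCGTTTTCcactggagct
ISG20: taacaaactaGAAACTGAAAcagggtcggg
The letters of the ISRE were present in a window of 21 of the 31 members (67.7%), against 3.57% of all 35116 windows and 4.38% of the 27305 genes with a window. The GAS, searched as TTCNNNGAA, which reads the same on both strands, was present for 11 of the 31 members (35.5%), against 7.66% of all windows and 9.38% of the genes. IRF1, a classic target of the gamma interferon pathway, held GAS letters and no ISRE letters in its window. A match says only that the letters are there, and no protein binding was measured. Elements with another spacing were not searched for.

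The arrays of 1 group stood apart in their control probe sets. The bacterial poly-A RNAs, which are added to the RNA before labelling, had a mean of 3.37 ± 0.04 (SD, n = 3) at 10 nM, against 5.93 ± 0.06 for vehicle and 5.81 ± 0.08 for 40 nM at 48 h. The 3′ minus 5′ difference of the ACTB control, which grows as RNA or labelled product is cut short, was 2.68 ± 0.02 at 10 nM against 0.35 ± 0.06 for vehicle and 0.45 ± 0.03 for 40 nM, while that of GAPDH was 0.13 to 0.15 in all 3 groups. The 10 nM group thus differed from the other groups at 48 h in these controls as well as in dose, and the part of the controls' difference in the results at 10 nM was not tested. The keratins KRT8 and KRT18, markers of the labelled epithelial cell, had group means of 12.1 to 14.0. Of the 6 epithelial markers, EPCAM was dim, with group means of 3.97 to 5.63. In the 3 comparisons with vehicle (24 h, then 10 nM and 40 nM at 48 h), CDH1 was called higher by 2.80, 2.82 and 1.78, and KRT7 was called lower at -0.90, -0.45 and -0.38. Of the 6, 5 were higher and 1 lower at 24 h, 2 higher and 2 lower at 10 nM, and 5 higher and 1 lower at 40 nM for 48 h. The marker counts stand beside 14.8%, 14.4% and 10.5% of all genes called higher and 16.7%, 11.9% and 10.7% called lower in these comparisons. The leukocyte marker PTPRC had group means of 2.93 to 3.56, and 6 of 8 leukocyte markers were measured. Against vehicle at 48 h, 1 of the 6 was called higher at 10 nM and 2 at 40 nM, and their summed log2 value was 26.9 to 27.6 on the vehicle arrays, 27.7 to 28.1 at 10 nM and 28.7 to 29.4 at 40 nM. Means at 48 h in vehicle, at 10 nM and at 40 nM were 4.41, 5.52 and 5.62 for ITGAM and 5.52, 5.305 and 6.38 for CD14. The 5 endothelial markers had group means of at most 5.67. A pair of markers, picked after their values were seen, also separated the 10 nM arrays: the fibroblast marker LUM had a mean of 2.92 at 10 nM, 6.37 in vehicle and 5.53 at 40 nM at 48 h, and 2.53 in vehicle at 24 h. Of the 6 fibroblast markers, 2 were called lower at 10 nM, and their summed value was 34.0 to 34.1 on the vehicle arrays at 48 h, 28.9 to 30.4 at 10 nM and 32.8 to 33.4 at 40 nM. KRT19 had means of 5.90 at 10 nM, 8.31 in vehicle and 8.95 at 40 nM at 48 h, and 4.85 in vehicle at 24 h. The part of these markers in the results was not tested.

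The first comparison asked which members responded to 40 nM within 24 h. Of the 38 members, 22 rose, 1 fell and 15 were not called. Over all genes, 14.8% were called higher, 16.7% lower and 31.5% in either direction. The median log2 difference was 0.46 over the members and -0.01 over all genes, and 0.29 over the members with all probe sets of a gene averaged. A called rise of at least 2-fold was seen for 8 members, against 1.62% of all genes. In RNA from whole cultures, a change in some of the cells and a change in every cell cannot be told apart.

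ISG20, an exonuclease that degrades viral RNA, had the largest rise at 24 h. Its values were 6.18, 5.82 and 5.86 on the vehicle arrays and 7.89, 7.86 and 8.05 at 40 nM. The groups lay well apart, and the log2 difference was 1.98 ± 0.10 (SE; limma adjusted p = 4.35e-09). IFIT1, which binds viral RNA that lacks the host's cap methylation, had 6.09, 5.70 and 5.85 in vehicle and 7.32, 7.42 and 7.51 at 40 nM, a rise of 1.53 ± 0.11 (limma adjusted p = 8.89e-08). Again no treated array reached down to the vehicle arrays. IFIT3, the partner that stabilises IFIT1, had 6.06, 5.84 and 5.59 in vehicle and 7.13, 7.19 and 7.39 at 40 nM, a rise of 1.41 ± 0.14 (limma adjusted p = 2.98e-06). A second probe set of IFIT3 rose by 0.83.

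TRIM22, an antiviral E3 ubiquitin ligase, had 4.45, 3.64 and 3.53 in vehicle and 5.18, 5.42 and 5.35 at 40 nM. One vehicle array was higher than the other two but lay below the treated arrays, and the rise was 1.45 ± 0.19 (limma adjusted p = 4.08e-05). BST2, the membrane tether that holds budding virions on the cell, had 5.05, 4.95 and 4.18 in vehicle and 5.87, 6.19 and 6.33 at 40 nM. Here one vehicle array was lower than the others, and the groups did not overlap at a rise of 1.40 ± 0.22 (limma adjusted p = 0.000163). OAS1, which makes the 2′-5′ oligoadenylates that activate RNase L, had 5.31, 5.34 and 5.43 in vehicle and 6.56, 6.36 and 6.97 at 40 nM, a rise of 1.27 ± 0.12 (limma adjusted p = 2e-06).

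The OAS family was the most divided at 24 h. OASL, a family member without synthetase activity that enhances RIGI signalling, was the 1 member that fell. It had 6.12, 6.52 and 6.27 in vehicle and 5.76, 5.78 and 5.67 at 40 nM. The groups did not overlap, and the difference was -0.57 ± 0.10 (limma adjusted p = 0.000361). A second OASL probe set was also called lower, at -0.93. OAS2 was called higher at 0.40 (limma adjusted p = 0.029) with overlapping groups, and OAS3 was not called at -0.09.

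Among the other roles at 24 h, both RNA sensors rose, RIGI by 0.66 and IFIH1 (MDA5) by 0.67. IFIT2 rose by 1.13, and IFIT5 was not called at 0.03. A second IFIT2 probe set, nearly as bright as the one used, was not called at 0.22. In the ISG15 system, the conjugating enzyme UBE2L6 rose by 0.63 and the ligase HERC6 by 0.32, while ISG15 itself (0.07), the main human ligase HERC5 (-0.28) and the deconjugating protease USP18 (-0.18) were not called. Of the transcription factors, IRF1 rose by 0.80 and IRF9 by 0.57, and IRF7 was not called at -0.20. Neither MX gene was called. IFI44L rose by 1.08, IFITM1 by 0.75 and IFI6 by 0.47, and IFI27 was not called at -0.04. SAMD9L rose by 0.45, EPSTI1 by 0.62 and IFI44 by 0.49. The calls of 6 members at 24 h were lost when 1 array was left out. At 40 nM, leaving out replicate 1 gave SAMD9L a limma adjusted p of 0.0762, leaving out replicate 2 gave EPSTI1 0.0539 and OAS2 0.135, and leaving out replicate 3 gave HERC6 0.0877, IFI44 0.0586, IFIH1 0.0674 and OAS2 0.0774. Leaving out vehicle replicate 2 gave OAS2 0.142, and leaving out vehicle replicate 3 gave HERC6 0.0847 and IFIH1 0.0692. Without replicate 3 at 40 nM, 3 members were called lower in place of 1. With all probe sets of a gene averaged, OAS2 was at 0.13 and HERC6 at 0.05 (limma adjusted p = 0.352 and 0.789), and with the arrays of 24 h fitted alone they had limma adjusted p-values of 0.14 and 0.127. Without probe sets named _x_at or _s_at, another probe set stood for IFI44 and gave 0.02 (limma adjusted p = 0.948).

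**Figure D1:**
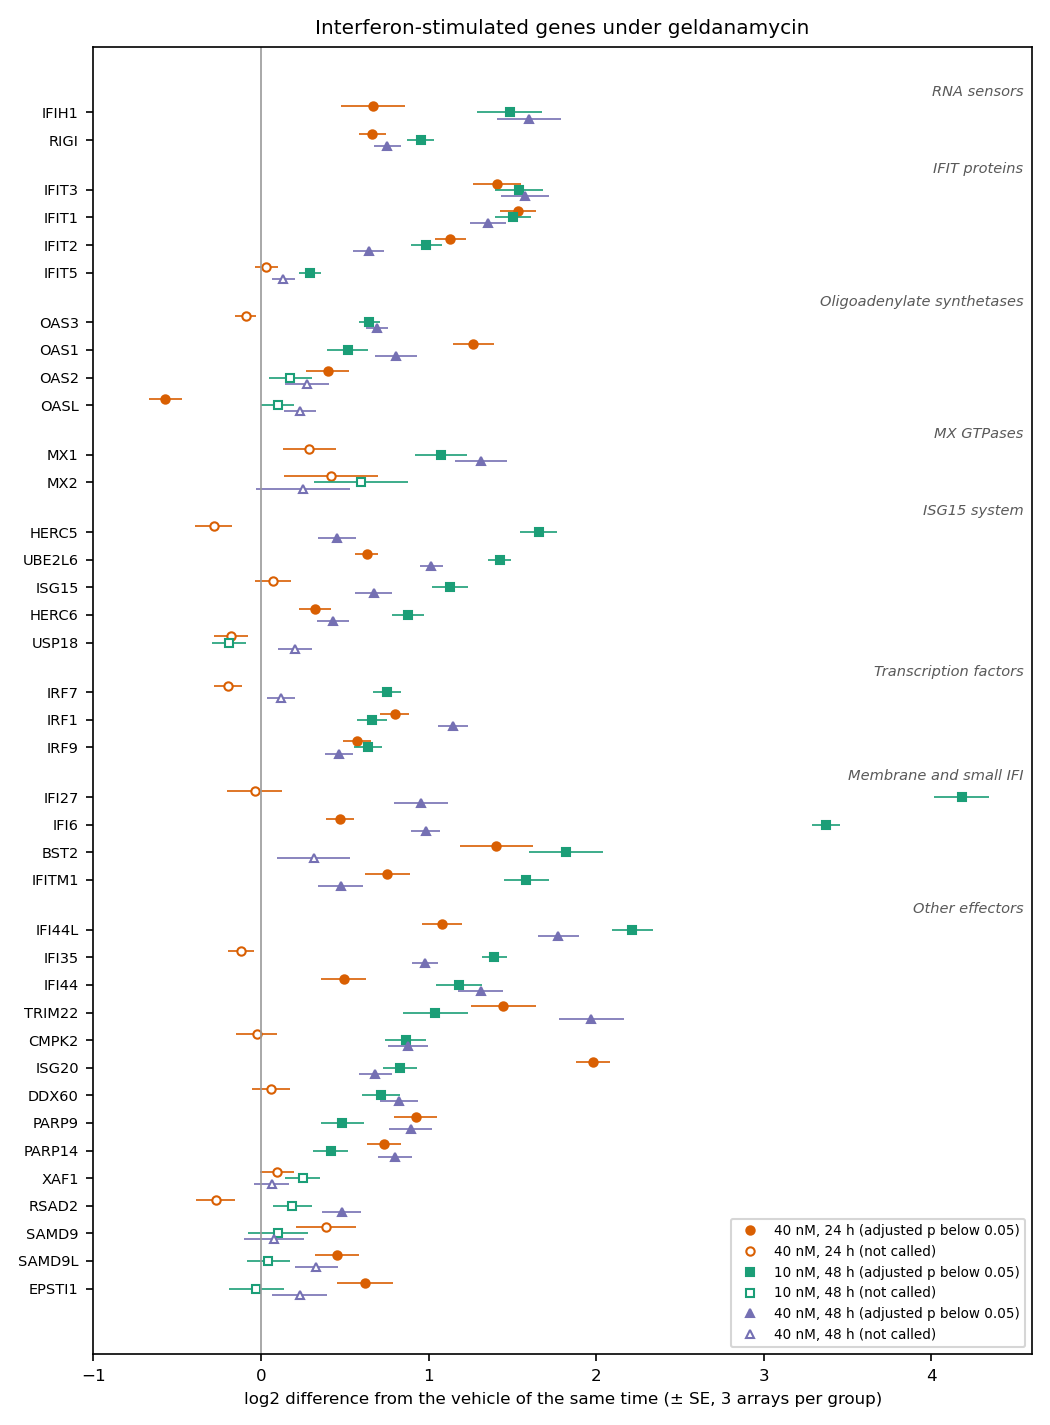
The plot gives the log2 difference from the vehicle of the same time (± SE, 3 arrays per group) for the 38 members, grouped by role, with filled symbols where limma's adjusted p was below 0.05. Most filled symbols lie to the right of 0, and IFI27 (4.18) and IFI6 (3.37) at 10 nM lie far to the right of all other values.

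The next comparison took the lower dose at 48 h. Of the 38 members, 29 rose, none fell in limma's test (nor at an unadjusted p below 0.05) and 9 were not called, where 14.4% of all genes were called higher and 26.3% in either direction. The median log2 difference was 0.85 over the members and 0.00 over all genes. A called rise of at least 2-fold was seen for 15 members, against 1.3% of all genes. The 3 arrays at 10 nM did not overlap the vehicle arrays for 31 members, where 40.2% of all genes showed no overlap in either direction.

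The membrane and small IFI proteins held the 2 largest rises at 10 nM, and all 4 of them were called. IFI27, a small mitochondrial and nuclear membrane protein widely used as a blood marker of interferon responses, had 5.18, 4.86 and 4.62 in vehicle and 9.29, 9.19 and 8.73 at 10 nM. The arrays at 10 nM were about 4 log2 units above those of vehicle, and the rise of 4.18 ± 0.16 (18.1-fold; limma adjusted p = 3.57e-10) ranked 3 among the changes of all genes, ordered from the largest rise. IFI6, a related protein of the endoplasmic reticulum and mitochondria, had 7.13, 7.11 and 7.10 in vehicle and 10.49, 10.50 and 10.45 at 10 nM. The arrays of each group were nearly identical, and the rise of 3.37 ± 0.09 (10.3-fold; limma adjusted p = 4.97e-12) ranked 10.

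BST2 had 5.32, 4.89 and 5.05 in vehicle and 6.996, 7.13 and 6.59 at 10 nM, a rise of 1.82 ± 0.22 (limma adjusted p = 2.22e-05). IFITM1, which hinders the entry of enveloped viruses, had 6.69, 6.88 and 6.79 in vehicle and 8.38, 8.41 and 8.31 at 10 nM, a rise of 1.58 ± 0.13 (limma adjusted p = 7.99e-07). For both genes the groups lay apart. The probe set of IFITM1 carries the suffix _s_at, which marks probes matching several transcripts. Signal from the close relatives IFITM2 and IFITM3 thus cannot be told apart from that of IFITM1. Of the 38 probe sets used, 11 carry the suffix _s_at or _x_at.

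Other large rises came from an effector and from the ISG15 system. IFI44L, a paralog of IFI44 with antiviral activity, had 3.34, 3.81 and 3.58 in vehicle and 5.85, 5.82 and 5.70 at 10 nM, a rise of 2.22 ± 0.12 (limma adjusted p = 8.54e-09). HERC5, which attaches ISG15 to newly made proteins, had 6.40, 6.05 and 6.08 in vehicle and 7.85, 7.92 and 7.73 at 10 nM, a rise of 1.66 ± 0.11 (limma adjusted p = 9.43e-08). In neither gene did the groups overlap. UBE2L6 rose by 1.42, ISG15 by 1.13 and HERC6 by 0.88, so that 4 of the 5 members of this system rose together, and USP18, which removes ISG15, was not called at -0.19.

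Both RNA sensors rose at 10 nM, IFIH1 by 1.48 and RIGI by 0.95, as did all 4 IFIT genes, from 0.29 for IFIT5 to 1.54 for IFIT3. The second probe sets of IFIT3 and of IFIT2 each gave 0.33, and neither was called. OAS3 rose by 0.65 and OAS1 by 0.52, and OAS2 (0.17) and OASL (0.10) were not called, although the second OASL probe set was called higher at 0.46. All 3 measured transcription factors rose, IRF7 by 0.75, IRF1 by 0.66 and IRF9 by 0.64. MX1, the GTPase that traps viral nucleocapsids, rose by 1.07, and MX2 was not called at 0.60 with a standard error of 0.28. Of the 14 other effectors, 9 rose, among them IFI35 by 1.39, IFI44 by 1.18, TRIM22 by 1.04, CMPK2 by 0.86, ISG20 by 0.83 and DDX60 by 0.72. XAF1, RSAD2, SAMD9, SAMD9L and EPSTI1 were not called, with differences from -0.03 to 0.25. PARP9 rose by 0.49, and without replicate 2 at 10 nM its limma adjusted p was 0.0504. The rises of 4 members were not called under another choice of probe sets. Without those named _x_at or _s_at, PARP9 was at 0.23 and IFI44 at 0.22 (limma adjusted p = 0.174 and 0.272). With all probe sets of a gene averaged, IFIT5 was at 0.17 and PARP14 at 0.15 (limma adjusted p = 0.0868 and 0.064).

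The higher dose at 48 h was compared with the same vehicle arrays, so the 2 comparisons at 48 h share their controls. Of the 38 members, 27 rose, none fell in limma's test and 11 were not called, where 10.5% of all genes were called higher and 21.3% in either direction. The median log2 difference was 0.69 over the members and -0.02 over all genes, and 9 members rose by at least 2-fold, against 0.986% of all genes. All 38 differences were above 0, with 45.9% of all genes above 0.

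TRIM22 led this comparison, with 6.44, 6.17 and 6.22 in vehicle and 8.004, 8.47 and 8.27 at 40 nM, a rise of 1.97 ± 0.19 (limma adjusted p = 5.79e-06). IFI44L had 3.34, 3.81 and 3.58 in vehicle and 5.24, 5.61 and 5.21 at 40 nM, a rise of 1.77 ± 0.12 (limma adjusted p = 1.61e-07). IFIH1, the sensor of long double-stranded RNA, had 3.87, 4.04 and 3.56 in vehicle and 5.29, 5.71 and 5.28 at 40 nM, a rise of 1.6 ± 0.19 (limma adjusted p = 3.44e-05). No array at 40 nM overlapped the vehicle arrays in these 3 genes. IFIH1 has 2 further probe sets with means of 2.84 and 2.52 over the 15 arrays, and neither was called.

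IFIT3 had 7.02, 6.57 and 6.56 in vehicle and 8.12, 8.41 and 8.35 at 40 nM, a rise of 1.57 ± 0.14 (limma adjusted p = 2.73e-06). IFIT1 had 6.14, 6.42 and 6.22 in vehicle and 7.47, 7.78 and 7.60 at 40 nM, a rise of 1.35 ± 0.11 (limma adjusted p = 8e-07). MX1 had 5.45, 5.23 and 5.30 in vehicle and 6.61, 6.76 and 6.54 at 40 nM, a rise of 1.31 ± 0.16 (limma adjusted p = 3.14e-05). The groups again lay apart, and IFI44 rose as much as MX1, by 1.31.

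The genes with the largest rises at 10 nM rose less at 40 nM. IFI27 had 5.69, 5.85 and 5.99 at 40 nM, above the vehicle values of 4.62 to 5.18, a rise of 0.95 ± 0.16 (limma adjusted p = 0.00069). IFI6 had 8.01, 8.06 and 8.20, above 7.10 to 7.13 in vehicle, a rise of 0.98 ± 0.09 (limma adjusted p = 1.71e-06). BST2 was not called at 0.31, and its values of 5.14, 5.64 and 5.42 overlapped those of vehicle. IFITM1 rose by 0.47, a call lost without replicate 2 or 3 at 40 nM (limma adjusted p = 0.0838 and 0.066) or without vehicle replicate 1 or 3 (limma adjusted p = 0.0801 and 0.0551).

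In the ISG15 system, UBE2L6 rose by 1.02, ISG15 by 0.67, HERC5 by 0.45 and HERC6 by 0.43 at 40 nM, and USP18 was not called at 0.20. IRF1 rose by 1.15 and IRF9 by 0.47, and IRF7 was not called at 0.12. RIGI rose by 0.75, OAS1 by 0.81 and OAS3 by 0.69, and the second OASL probe set was again called higher, at 0.47, where the one used was not called at 0.23. The XAF1 probe set used was not called at 0.06. Another XAF1 probe set, also dim, was called higher at 0.45, and a further one was not called at -0.15. IFI35 rose by 0.98, PARP9 by 0.89, CMPK2 by 0.88, DDX60 by 0.82, PARP14 by 0.80 and ISG20 by 0.68. RSAD2 (viperin), an enzyme that makes a chain-terminating nucleotide, rose by 0.48 from a vehicle mean of 3.35, and its second probe set was not called at 0.03. With all probe sets of a gene averaged, RSAD2 was at 0.26 and HERC6 at 0.12, and neither was called (limma adjusted p = 0.0626 and 0.492). Without probe sets named _x_at or _s_at, PARP9 was at 0.24 and IFI44 at 0.31, again not called (limma adjusted p = 0.19 and 0.117).

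**Figure D2:**
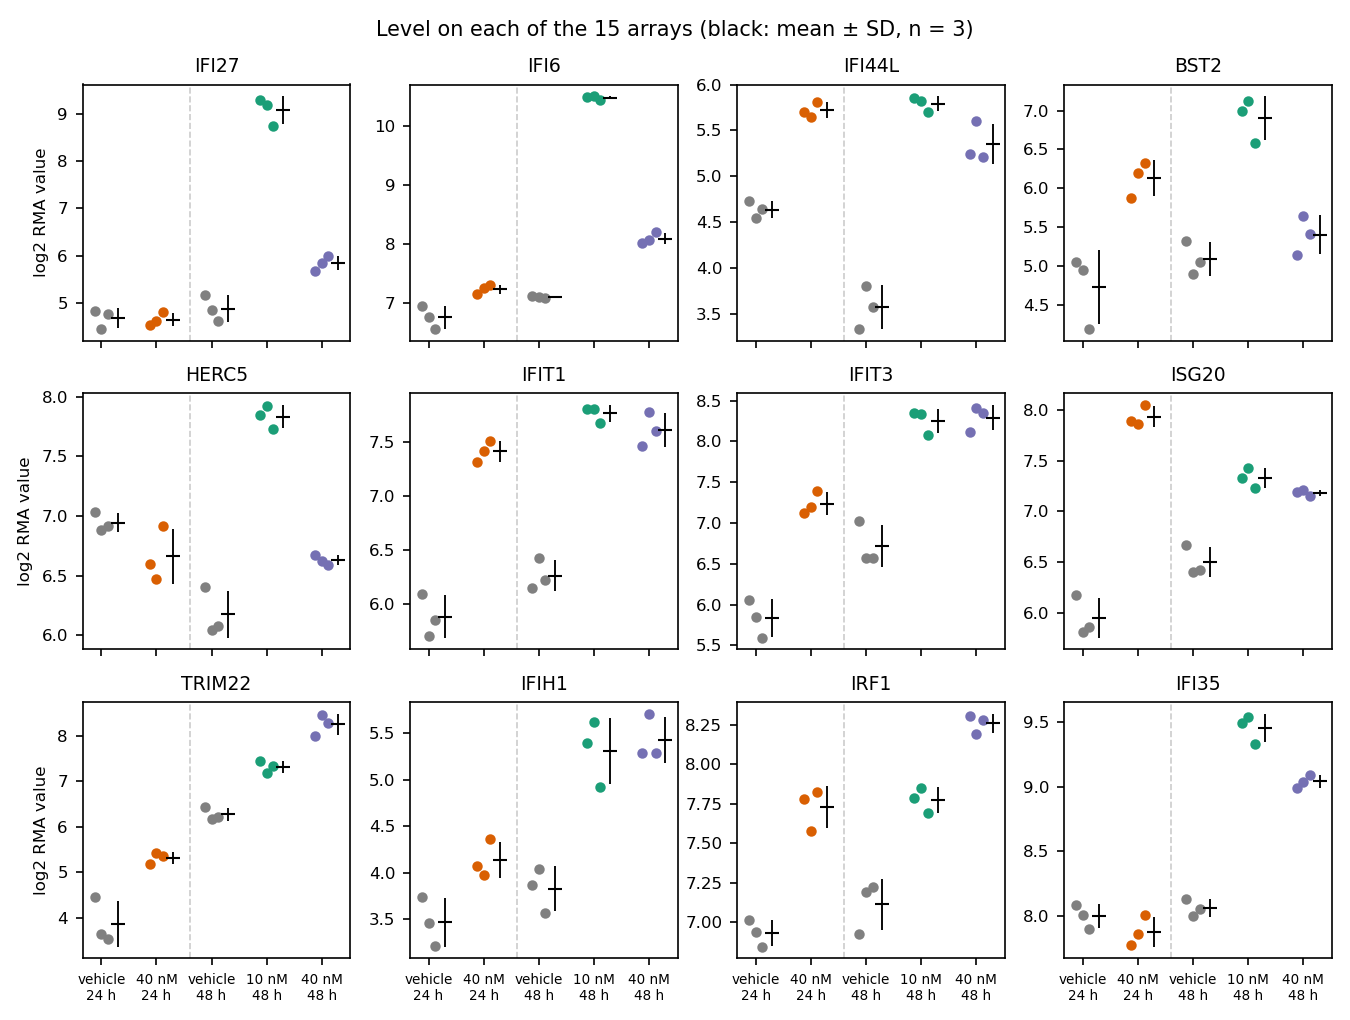
Each panel shows the log2 RMA value of 1 gene on each of the 15 arrays, by group, with the mean and SD of the 3 arrays in black and a dashed line between the times, whose levels are not on 1 scale. IFI27, IFI6, BST2 and HERC5 are highest at 10 nM, TRIM22 and IRF1 are highest at 40 nM for 48 h, and the values of IFIT1 and of IFIT3 overlap between the 2 doses at 48 h.

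Against the shared vehicle arrays, IFIT5, IRF7 and BST2 were called at 10 nM and not at 40 nM, and RSAD2 at 40 nM and not at 10 nM. The 40 nM arrays were also compared directly with the 10 nM arrays. Of the 38 members, 12 were lower at 40 nM, 5 were higher and 21 were not called, where 14.5% of all genes were called lower, 11.9% higher and 26.4% in either direction. The median difference was -0.09 over the members and -0.01 over all genes, and 0.006 over the 31 members left without probe sets named _x_at or _s_at.

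IFI27 had the largest difference between the doses, -3.23 ± 0.16 (limma adjusted p = 6.49e-09), with 8.73 to 9.29 at 10 nM and 5.69 to 5.99 at 40 nM. IFI6 differed by -2.39 ± 0.09 (limma adjusted p = 1.65e-10), with 10.45 to 10.50 at 10 nM and 8.01 to 8.20 at 40 nM. Both genes thus had their higher level at the lower dose. BST2 differed by -1.50 ± 0.22 (limma adjusted p = 0.000139), HERC5 by -1.20 ± 0.11 (limma adjusted p = 2.7e-06) and IFITM1 by -1.11 ± 0.13 (limma adjusted p = 2.81e-05). For all 5 genes the arrays of the 2 doses did not overlap, as was so for 24 of the 38 members and 39.9% of all genes.

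By role, all 4 membrane and small IFI proteins and 4 of the 5 members of the ISG15 system were lower at 40 nM than at 10 nM. Beyond HERC5, the members of the latter were ISG15 at -0.46, HERC6 at -0.45 and UBE2L6 at -0.41. The transcription factors were split, with IRF7, the regulator that amplifies type I interferon production, lower by -0.63 and IRF1 higher by 0.48. IFI35 (-0.41), IFI44L (-0.44) and IFIT2 (-0.34) were also lower. The call of IFI44L was lost without replicate 1 at 10 nM (limma adjusted p = 0.0517) and without replicate 1 or 3 at 40 nM (limma adjusted p = 0.0617 and 0.0651). That of IFIT2 was lost without replicate 2 at 10 nM (limma adjusted p = 0.0518) or replicate 1 at 40 nM (limma adjusted p = 0.0665).

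In the opposite direction, TRIM22 had 7.43, 7.18 and 7.34 at 10 nM and 8.004, 8.47 and 8.27 at 40 nM, a difference of 0.93 ± 0.19 (limma adjusted p = 0.00235). IRF1 had 7.79, 7.85 and 7.69 at 10 nM and 8.31, 8.19 and 8.28 at 40 nM, a difference of 0.48 ± 0.09 (limma adjusted p = 0.000965). A second IRF1 probe set was not called between the doses, at 0.245. USP18 had 6.37, 6.25 and 6.15 at 10 nM and 6.65, 6.66 and 6.65 at 40 nM, a difference of 0.39 ± 0.10 (limma adjusted p = 0.0101). The groups did not overlap in these 3 genes, and USP18 had been called against vehicle at neither dose. PARP9, which works with the E3 ligase DTX3L, had 7.13, 7.21 and 6.98 at 10 nM and 7.45, 7.67 and 7.42 at 40 nM, a difference of 0.41 ± 0.13 (limma adjusted p = 0.0302). PARP14, a mono-ADP-ribosyltransferase, had 8.09, 8.14 and 7.88 at 10 nM and 8.37, 8.49 and 8.41 at 40 nM, a difference of 0.38 ± 0.10 (limma adjusted p = 0.0119). The call of PARP14 was lost without replicate 3 at 10 nM (limma adjusted p = 0.0562). That of PARP9 was lost without replicate 1 or 3 at 10 nM (limma adjusted p = 0.0643 and 0.109) or replicate 1 or 2 at 40 nM (limma adjusted p = 0.0527 and 0.127). Averaged over all their probe sets, PARP9 was at 0.21 and PARP14 at 0.15 (limma adjusted p = 0.123 and 0.0604), and without probe sets named _x_at or _s_at PARP9 was at 0.006 (limma adjusted p = 0.985).

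With the probe sets used, the members of the IFIT, OAS and MX families other than IFIT2 were not called between the doses. The second IFIT3 probe set was called higher at 40 nM, at 0.36, and a second one of IFIT2 was not called at -0.12. The 95% confidence interval of the difference was -0.38 to 0.08 for IFIT1, -0.27 to 0.34 for IFIT3, -0.09 to 0.18 for OAS3 and -0.10 to 0.57 for MX1. For IFIH1 it was -0.30 to 0.53. These intervals leave room for differences of the size seen in IRF1 for MX1 and IFIH1, but not for those of IFI27 or IFI6. Of the members called at 1 dose, the difference between doses was called for IRF7 and BST2, and not for IFIT5 (limma adjusted p = 0.103) or RSAD2 (limma adjusted p = 0.0845). A dim further probe set of SAMD9L was called lower at 40 nM, at -0.51, where the one used was not called at 0.29.

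**Figure D3:**
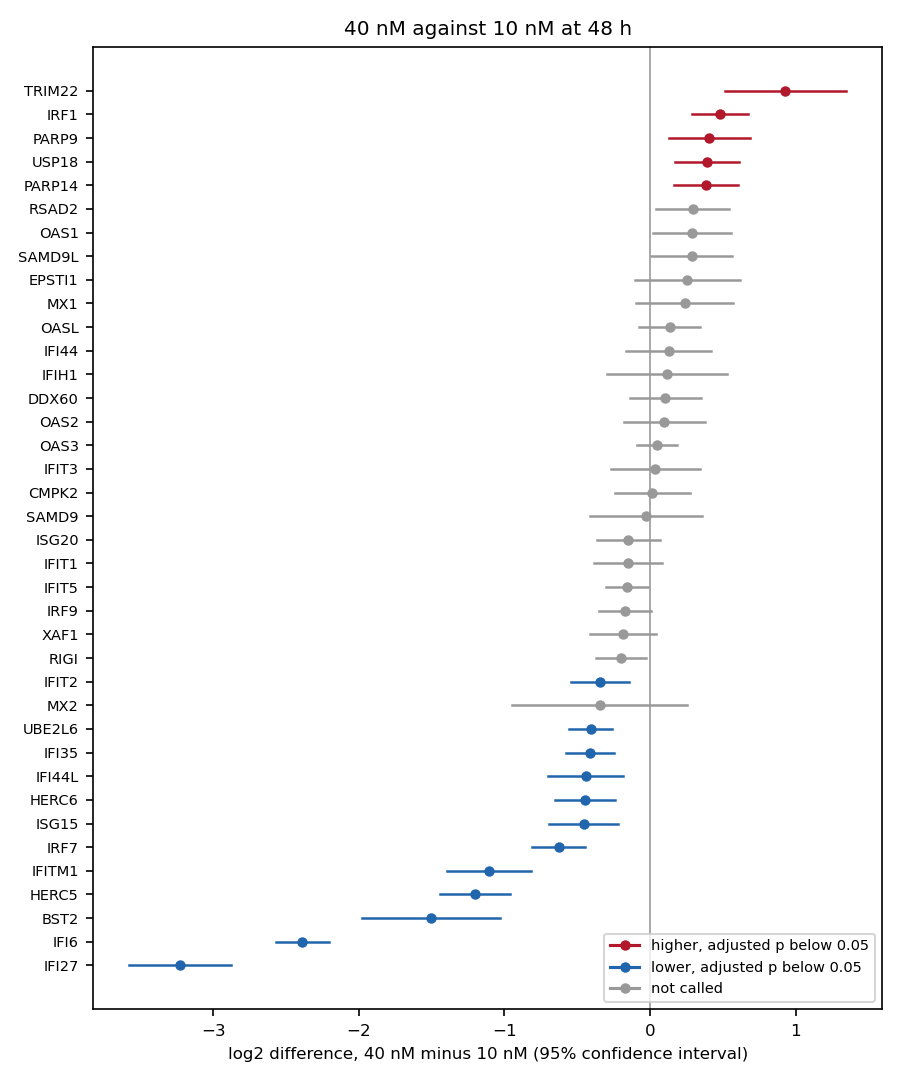
The plot gives the log2 difference of 40 nM minus 10 nM at 48 h with its 95% confidence interval (3 arrays per group) for the 38 members, in colour where limma's adjusted p was below 0.05. IFI27 (-3.23) and IFI6 (-2.39) lie far to the left, and TRIM22 (0.93) has the highest of the 5 called positive values.

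Whether the response to 40 nM differed between the times was tested by subtracting the effect at 24 h from the effect at 48 h, in which a step shared by all arrays of a time cancels. The effect was larger at 48 h for 15 members and smaller for 3, and the difference was not called for 20. Over all genes, 9.18% were called higher, 8.11% lower and 17.3% in either direction. The median was 0.24 over the members and 0.00 over all genes, and 0.11 over the 31 members left without probe sets named _x_at or _s_at. For 2 members, IFI35 and MX1, the effect was larger by at least 2-fold, against 1.12% of all genes.

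IFI35, a partner of the interferon-induced protein NMI, had 8.08, 8.01 and 7.90 in vehicle and 7.77, 7.86 and 8.003 at 40 nM at 24 h, where the groups overlapped. At 48 h it had 8.13, 7.997 and 8.05 in vehicle and 8.99, 9.04 and 9.09 at 40 nM. The difference of effects was 1.10 ± 0.11 (limma adjusted p = 1.04e-05). MX1 had 4.47, 4.25 and 3.95 in vehicle and 4.75, 4.44 and 4.35 at 40 nM at 24 h, also overlapping, beside its rise at 48 h, and differed by 1.02 ± 0.22 (limma adjusted p = 0.00475). IFI27 had 4.85, 4.46 and 4.78 in vehicle and 4.54, 4.63 and 4.81 at 40 nM at 24 h, with full overlap, and differed by 0.99 ± 0.23 (limma adjusted p = 0.00782). IFIH1 had 3.73, 3.46 and 3.21 in vehicle and 4.08, 3.98 and 4.36 at 40 nM at 24 h, without overlap, and differed by 0.93 ± 0.27 (limma adjusted p = 0.0294). The call of IFIH1 was lost without any one of 6 arrays: vehicle replicates 1 and 2 and 40 nM replicates 1 and 2 at 24 h, and vehicle replicate 3 and 40 nM replicate 2 at 48 h, with differences of 0.79 to 0.94 and limma adjusted p-values of 0.054 to 0.0786. It was also lost with cyclic loess (0.94, limma adjusted p = 0.0573) and with all probe sets of a gene averaged (0.24, limma adjusted p = 0.222).

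A total of 9 members were called higher at 40 nM at 48 h and not at 24 h: OAS3, MX1, ISG15, HERC5, IFI27, RSAD2, CMPK2, DDX60 and IFI35. For each of the 9, the difference of effects was itself called, as it was for 56.4% of the 851 genes with such calls among all genes. That of RSAD2, averaged over its probe sets, was 0.36 and not called (limma adjusted p = 0.0717). OASL, lower at 24 h and not called at 48 h, differed by 0.80 (limma adjusted p = 0.000953). A further 18 members (47.4%) were called higher at both times, against 6.24% of all genes. For 7 of the 18, namely IFIH1, IFIT2, UBE2L6, IFI6, ISG20, IFI44 and IFI44L, the effects differed between the times. Among all genes, they differed for 410 of the 1234 called higher at both times, a share near that of the members. For the other 11, among them IFIT1, IFIT3, RIGI, IRF1, IRF9 and TRIM22, the difference was not called. A second IRF1 probe set, however, was called for a larger effect at 48 h, at 0.63. The larger effect of IFI44 at 48 h, at 0.82, was 0.29 and not called without probe sets named _x_at or _s_at (limma adjusted p = 0.365).

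The 3 smaller effects at 48 h were those of ISG20, BST2 and IFIT2. ISG20 had 6.67, 6.41 and 6.42 in vehicle and 7.19, 7.21 and 7.15 at 40 nM at 48 h, where it rose by 0.68, and the difference of effects was -1.30 ± 0.14 (limma adjusted p = 2.37e-05). BST2, with its rise of 1.40 at 24 h and overlapping groups at 48 h, differed by -1.09 ± 0.31 (limma adjusted p = 0.0257). IFIT2 had 4.17, 4.11 and 3.85 in vehicle and 5.11, 5.28 and 5.14 at 40 nM at 24 h, and 5.13, 5.22 and 5.30 in vehicle and 5.72, 5.97 and 5.89 at 40 nM at 48 h. It rose at both times, and the effects differed by -0.49 ± 0.13 (limma adjusted p = 0.0185). The second IFIT2 probe set was called at neither time, at 0.22 and 0.21, nor was its difference of effects, at -0.007. The call of BST2 was lost without 40 nM replicate 2 or 3 at 24 h, without 40 nM replicate 1 or 3 at 48 h and without vehicle replicate 1 at 48 h, with differences of -1.10 to -0.96 and limma adjusted p-values of 0.0503 to 0.069. That of IFIT2 was lost at 48 h without 40 nM replicate 1 (limma adjusted p = 0.0504) or vehicle replicate 3 (limma adjusted p = 0.052), and with all probe sets of a gene averaged (-0.25, limma adjusted p = 0.101). Without 40 nM replicate 1 at 48 h, the effect was thus smaller for 1 member in place of 3. OAS2, SAMD9L and EPSTI1 were called higher at 24 h and not at 48 h, and the difference of effects was called for none of these 3. Another SAMD9L probe set, with a mean of 3.53 over the 15 arrays, was called for a smaller effect at 48 h, at -0.595.

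**Figure D4:**
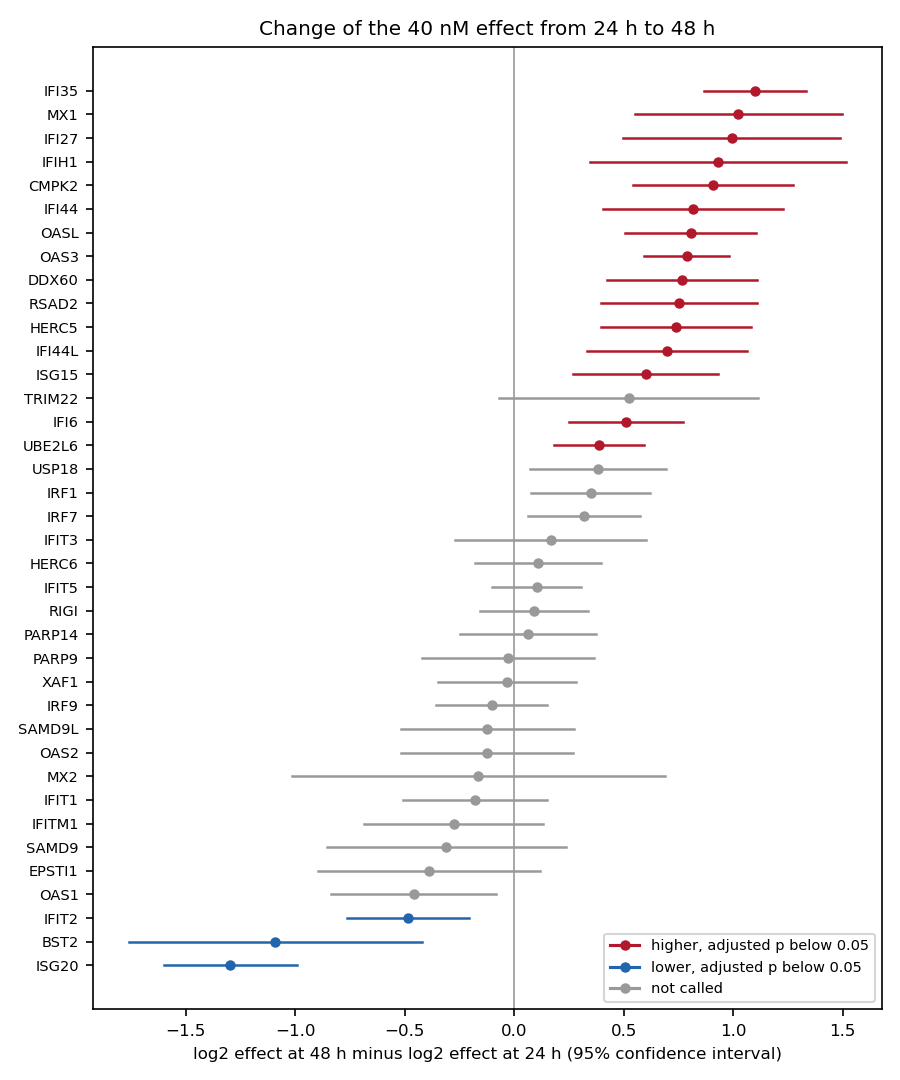
The plot gives the log2 effect of 40 nM at 48 h after subtracting its effect at 24 h, with its 95% confidence interval (3 arrays per group) for the 38 members, in colour where limma's adjusted p was below 0.05. IFI35 (1.10) has the highest of the 15 called positive values, and ISG20 (-1.30), BST2 (-1.09) and IFIT2 (-0.49) are the 3 called negative values.

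Calls were counted by whether the letters of the response element were found. At 10 nM, 18 of the 21 members with ISRE letters in a window rose, with a median difference of 1.13, as did 8 of the 10 with a window and no such letters, with a median of 0.76. At 40 nM for 48 h, 17 of the 21 and 8 of the 10 rose, with medians of 0.80 and 0.78. At 24 h, 12 of the 21 and 7 of the 10 rose, with medians of 0.49 and 0.51. Of the 7 members with no window in the table, 3 rose at 10 nM, 2 at 40 nM for 48 h and 3 at 24 h, where 1 fell, with medians of 0.60, 0.25 and 0.40. The members without ISRE letters in these windows that rose at both doses at 48 h were RIGI, OAS1, UBE2L6, HERC6, IRF1, IRF9, CMPK2 and IFI35. The search allowed only 2 bases between the repeated TTTC or GAAA, so lack of a match does not show lack of an ISRE. In RIGI, OAS1, CMPK2 and IFI35, for instance, a window holds such a repeat with 1 base between.

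The interferons themselves were looked at next. Of 19 ligand and receptor genes, 18 were measured. Of the 12 ligands among them, 11 had group means between 2.26 and 4.06 and were called in none of the 3 comparisons with vehicle. The type I gene IFNB1, for instance, had means of 3.28 and 3.15 at 24 h in vehicle and at 40 nM, and 3.65, 3.51 and 3.47 at 48 h in vehicle, at 10 nM and at 40 nM. The lambda gene IFNL1 had 3.44 and 3.80 at 24 h and 3.87, 3.97 and 3.90 at 48 h. The exception was IFNE, an epithelial type I interferon, which had means of 6.08 in vehicle, 5.13 at 10 nM and 5.50 at 40 nM at 48 h and fell by 0.95 and 0.58 (limma adjusted p = 1.2e-06 and 0.00017). RMA values of this size carry no call of presence, so whether the other ligands were expressed at all cannot be told from them.

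Of the 18 ligands and receptors, 2 were called higher at 24 h, 2 higher and 2 lower at 10 nM, and 5 higher and 1 lower at 40 nM for 48 h. Among all genes, 14.8%, 14.4% and 10.5% were called higher and 16.7%, 11.9% and 10.7% lower. The shares of this list at 24 h and at 10 nM were thus near or below those of all genes. IFNAR1 and IFNAR2, the chains of the type I receptor, rose at 48 h by 0.43 and 0.48 at 10 nM and by 0.41 and 0.40 at 40 nM, and neither was called at 24 h. IFNGR1, the ligand-binding chain of the gamma receptor, rose at 40 nM by 0.78 at 24 h and by 1.23 at 48 h, and fell by 0.31 at 10 nM. The direct difference between the doses was 1.54 ± 0.08 (limma adjusted p = 6.5e-09). IFNGR2 rose at 40 nM for 48 h by 0.70, IL10RB, shared by the lambda receptor, rose at 40 nM by 0.68 and 0.54 at the 2 times, and IFNLR1 was not called in any of these comparisons.

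The counts of the lists that follow stand beside 14.8%, 14.4% and 10.5% of all genes called higher at 24 h, at 10 nM and at 40 nM for 48 h. Of 10 genes of receptor signalling and its inhibitors, 9 were measured. At 24 h 2 rose and 1 fell, with JAK1 up by 0.79, STAT3 up by 0.45 and JAK2 down at -0.57. At 10 nM only JAK1 of the 9 was called, at 0.24, a share near that of all genes. At 40 nM for 48 h 4 rose: SOCS3 by 0.62, JAK1 by 0.59, STAT3 by 0.53 and TYK2 by 0.27. JAK1 and TYK2 are the kinases of the type I receptor, and SOCS3 inhibits JAK signalling. Of 14 genes of nucleic acid sensing, 13 were measured, and 7 rose and 1 fell at 24 h, 5 rose at 10 nM and 6 rose at 40 nM for 48 h. TLR3, the endosomal sensor of double-stranded RNA, rose in all 3 comparisons, by 0.63, 1.001 and 1.38. EIF2AK2, the RNA-dependent kinase PKR, also rose in all 3, by 0.70, 0.27 and 0.36. STING1, the adaptor of cytosolic DNA sensing, rose by 0.44 at 24 h and by 0.88 at 10 nM, and was not called at 40 nM for 48 h.

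A further 35 genes known as interferon-stimulated, none of them members, were looked at in the same way, and 33 were measured. At 24 h 20 rose, at 10 nM 18 rose and 2 fell, and at 40 nM for 48 h 17 rose and 1 fell. Their median differences were 0.24, 0.26 and 0.30, beside 0.46, 0.85 and 0.69 for the members. Of the 4 guanylate-binding proteins on this list, GTPases that act against intracellular pathogens, GBP4 was not called, at 0.17, 0.23 and 0.16. Of the other 3, GBP2 rose by 1.79 and GBP1 by 0.97 at 24 h, GBP3 by 1.13 and GBP1 by 0.85 at 10 nM, and GBP3 by 1.71, GBP1 by 1.35 and GBP2 by 1.02 at 40 nM for 48 h. Between the doses, 12 of the 33 were higher and 4 lower at 40 nM, where 11.9% of all genes were called higher and 14.5% lower. The share called lower was thus near that of all genes. IFITM3 and IFITM2, relatives of IFITM1, were lower at 40 nM, at -0.91 and -0.88, and PLSCR1 and GBP3 were higher, at 1.001 and 0.58.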

How the data were processed

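Per the submitters' processing notes, the authors ran RMA in Affymetrix Expression Console, whose version no source used here gives. The deposited values are log2 expression values, 1 per probe set and array. Of 54675 probe sets, 62 are controls, 41091 have 1 gene symbol, 1801 several and 11721 none in the annotation used. For 41037 of the probe sets with 1 symbol, the gene ID was found in RefSeq and the symbol there was used, whether or not it differed. The brightest single-symbol probe set of each gene gave 19775 genes, with no missing value. Group means were fitted with limma 3.58.1 in R 4.3.3 to all 15 arrays, which left 10 residual degrees of freedom. The script was tested on simulated data. Members and gene lists were chosen with earlier results of these data known. In each comparison, the up to 6 largest called members and all called against the majority were given by array; genes of other lists were named only if called and among the 4 largest of their list, ligands and receptors always, and cell type markers as checks. Alternatives covered normalization, probe set choice, dim genes, variance model, array weights, arrays in the fit, the replicate number and single arrays. The arrays without the 10 nM group were an alternative chosen after seeing the data.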

Additional observations from a re-analysis of the deposited data

Results flagged for a closer look

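The log2 effect of 40 nM differed between the times by limma's test of the interaction for 18 members, where 17.3% of all genes did. Differences are given as the effect at 48 h after subtracting the effect at 24 h. The effect was larger at 48 h for the double-stranded RNA sensor IFIH1 (0.93), for OAS3 (0.79) and OASL (0.80), and for MX1 (1.02). It was larger in the ISG15 system for ISG15 (0.60), UBE2L6 (0.39) and HERC5 (0.74). It was larger among the small IFI proteins for IFI6 (0.51) and IFI27 (0.99). Among the other effectors it was larger for RSAD2 (0.75), CMPK2 (0.91), DDX60 (0.77), IFI35 (1.10), IFI44 (0.82) and IFI44L (0.69). It was smaller at 48 h for IFIT2 (-0.49), BST2 (-1.09) and ISG20 (-1.30). With all probe sets of a gene averaged, the differences of IFIH1 (0.24), RSAD2 (0.36) and IFIT2 (-0.25) were not called, nor was that of IFI44 (0.29) without probe sets named _x_at or _s_at (limma adjusted p = 0.222, 0.0717, 0.101 and 0.365).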

How the results depend on the processing

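No called member changed sign under any setting run, but under settings other than leaving out an array the calls of 3 members at 24 h, 4 at 10 nM, 4 at 40 nM for 48 h, 2 between doses and 4 between times were lost. Values below are log2 differences unless they are counts. With array weights, whose fit stopped before it converged, 4 members were lower at 24 h, 9 were higher at 40 nM than at 10 nM and 5 had a smaller effect at 48 h; IFI27 (0.14) and CMPK2 (0.055) at 24 h, SAMD9L at 10 nM (-0.053), IFIT3 between doses (-0.011) and XAF1 between times (0.048), none of them called, turned sign. With all probe sets of a gene averaged, the median at 24 h was 0.29, 3 members were higher at 40 nM than at 10 nM, and the uncalled EPSTI1 at 10 nM (0.004), SAMD9 (0.095) and SAMD9L (-0.002) between doses and OAS2 (0.089), XAF1 (0.071) and PARP14 (-0.036) between times turned sign. Without probe sets whose names end in _x_at or _s_at, which left 31 members, 19, 21 and 21 members were higher than vehicle at 24 h, at 10 nM and at 40 nM for 48 h and 11 had a larger effect at 48 h, the median at 10 nM was 0.66 and that between times 0.11, and between the doses 3 members were higher and the median was 0.006. With the dimmest 40% of genes left out, which also left 31 members, 18 were higher and 2 lower at 24 h. With cyclic loess, SAMD9 between doses was 0.018.

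When 1 array was left out, members higher numbered 18 to 23 at 24 h, 28 to 30 at 10 nM, 26 to 27 at 40 nM for 48 h, 4 to 5 between doses and 14 to 16 between times. Members lower numbered 1 to 3 at 24 h, 10 to 12 between doses and 1 to 3 between times. Medians ranged from 0.46 to 0.52, 0.77 to 0.89, 0.69 to 0.73, -0.16 to -0.04 and 0.16 to 0.32 in the same 5 comparisons. Uncalled members that turned sign ranged, at 24 h, from -0.025 to 0.101 (IFIT5), -0.01 to 0.18 (ISG15), -0.155 to 0.038 (IFI27), -0.077 to 0.065 (CMPK2), -0.029 to 0.181 (XAF1) and -0.035 to 0.207 (DDX60). They ranged from -0.059 to 0.156 (SAMD9L) and -0.175 to 0.124 (EPSTI1) at 10 nM, and from -0.02 to 0.388 (MX2) and -0.093 to 0.227 (SAMD9) at 40 nM for 48 h. Between doses they ranged from -0.079 to 0.271 (IFIH1), -0.049 to 0.124 (IFIT3), -0.105 to 0.13 (CMPK2) and -0.197 to 0.123 (SAMD9). Between times they ranged from -0.253 to 0.029 (OAS2), -0.454 to 0.093 (MX2), -0.118 to 0.092 (XAF1), -0.236 to 0.007 (SAMD9L), -0.17 to 0.087 (PARP9) and -0.009 to 0.168 (PARP14).

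Arrays share replicate numbers across groups, and the labels do not say whether these numbers pair the arrays. Of 30 same-number pairs, only 10 had a correlation of deviations over 0.1 (range -0.46 to 0.50). With 3 arrays per group, such correlations cannot decide whether arrays were paired. With the replicate block, 22 members were higher at 24 h, 29 at 10 nM and 27 at 40 nM for 48 h, as without it. Leaving out the 10 nM arrays, chosen after seeing the data, also gave 22 at 24 h and 27 at 48 h. Other probe sets of a called member were often dim: at 24 h, of 19 such sets, 9 were called the same way and 5 had the opposite sign; these numbers were 15, 5 and 3 at 10 nM, 15, 7 and 3 at 40 nM for 48 h, 5, 0 and 1 between doses, and 8, 3 and 3 between times. The cause of these changes was not tested. On arrays, the number of arrays and the signal over background limit what can be seen, and 7 members lay among the dimmest 40% of genes.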

Other observations

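Between the times, the vehicle arrays differed by a median of 0.35 over all genes (quartiles 0.17 and 0.56) and 0.36 over the members, so levels at 24 h and 48 h are given side by side and not compared by a test. TRIM22 stood at 4.45, 3.64 and 3.53 on the vehicle arrays at 24 h and at 6.44, 6.17 and 6.22 at 48 h, the largest step of the set (2.41). IFI44L stood at 4.73, 4.54 and 4.64 at 24 h and at 3.34, 3.81 and 3.58 at 48 h, the lowest step (-1.06).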
